A study of Sus scrofa with 2 samples.

Results

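Collagens, laminins and integrins are the chains of the muscle's connective tissue and of the receptors that bind it. They were taken from a table of messenger RNA in pig longissimus dorsi, a muscle that runs along the spine, as the entries whose symbol is that of a collagen alpha chain, a laminin chain or an integrin subunit. This gave 58 genes of 11374 entries with a symbol and 27987 entries in all, made up of 29 collagens, 8 laminins and 21 integrins. The animals were crossbred barrows, castrated males bred from Duroc boars and Yorkshire-Landrace sows (DLY), 16 in number, from 8 litters and of 79.0 ± 1.5 kg body weight. The control arm (CON, 8 pigs) was held at a constant 22 °C and the heat arm (H30, 8 pigs) at a constant 30 °C, each for 21 days. There was 1 library per arm, and the sources used here do not say how many pigs contributed RNA to it. No spread between pigs and no test of temperature can therefore be had, and each comparison is between 2 libraries, named here by their temperature.

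Collagen alpha chains wind into helical trimers that are secreted as procollagen, trimmed outside the cell and cross-linked. In skeletal muscle the fibrillar types I and III form the sheets around fibres and fascicles, with type V inside the fibrils, while type IV and the laminins build the basement membrane that wraps each fibre and capillary, and type VI joins that membrane to the fibrils outside it. Laminins are trimers of an alpha, a beta and a gamma chain. Integrins are membrane receptors of 1 alpha and 1 beta subunit that bind collagens, laminins and other ligands outside the cell and the cytoskeleton inside it.

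The levels are RPKM values (reads per kilobase of gene and per 1000000 mapped reads), which can be compared between genes. Effects are log2 ratios of RPKM + 1, 30 °C over 22 °C, and were taken over the 13191 entries whose mean RPKM reached 1. Because 1 is added, the ratio of a low gene is understated. Whole reads recovered from the values put the depth at an estimated 23608242 reads at 22 °C and 22863584 at 30 °C. For single genes a 95% Clopper-Pearson interval of the RPKM ratio was computed from the smallest whole reads that fit both values. It covers counting error only and tends to be too wide, since the true reads can be a multiple. Of 14 muscle fibre markers listed, 7 were matched and none was at 0. These took 15.9% of summed RPKM at 22 °C and 15.7% at 30 °C, led by skeletal actin, ACTA1, at 68749 and 65219 RPKM. Another 24 listed chains and subunits, among them COL1A1, COL4A1, COL6A1, LAMA2 and ITGA7, had no entry with their symbol and are not analysed here.

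Of the 58 members, 36 reached a mean RPKM of 1, namely 16 collagens, 4 laminins and 16 integrins. Collagens and laminins were lower at 30 °C almost throughout, while integrins went both ways. Below 0 were 15 of the 16 collagens, 4 of the 4 laminins and 7 of the 16 integrins, 26 of 36 members in all, against 41.2% of all genes compared. The other 10 members were above 0, against 58.8% of all genes. The median log2 ratio was -0.21 for collagens, -0.15 for laminins and 0.09 for integrins, beside 0.05 for all genes. The differences were small. On the scale of RPKM + 1, 8 of the 36 members were at least 1.2-fold lower (10.5% of all genes) and 1 was at least 1.2-fold higher (17.5% of all genes). On the same scale none was 1.5-fold apart (5.81% of all genes). The split of 8 lower and 1 higher was 10 and 0 once the 30 °C library was scaled by the median ratio of all genes, 11 and 0 once it was scaled by a trimmed mean, and 5 and 2 once the 10 highest genes were left out of the scaling. Over all genes the lower and higher shares were then 13.0% and 13.8%, 13.7% and 13.2%, and 8.74% and 21.3%. The counting interval lay below 1 for 15 members (8.77% of all genes with an interval) and above 1 for 4 (17.1%). The former are 12 collagens, 2 laminins and 1 integrin, and the latter are all integrins. An interval narrows with more reads, and COL1A2, for example, had at least 24442 and 19135. The shares of all genes were not matched for reads or level, so they are not a like measure for these counts. In whole muscle, fewer cells of a type and less RNA per cell cannot be told apart.

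**Figure D1:**
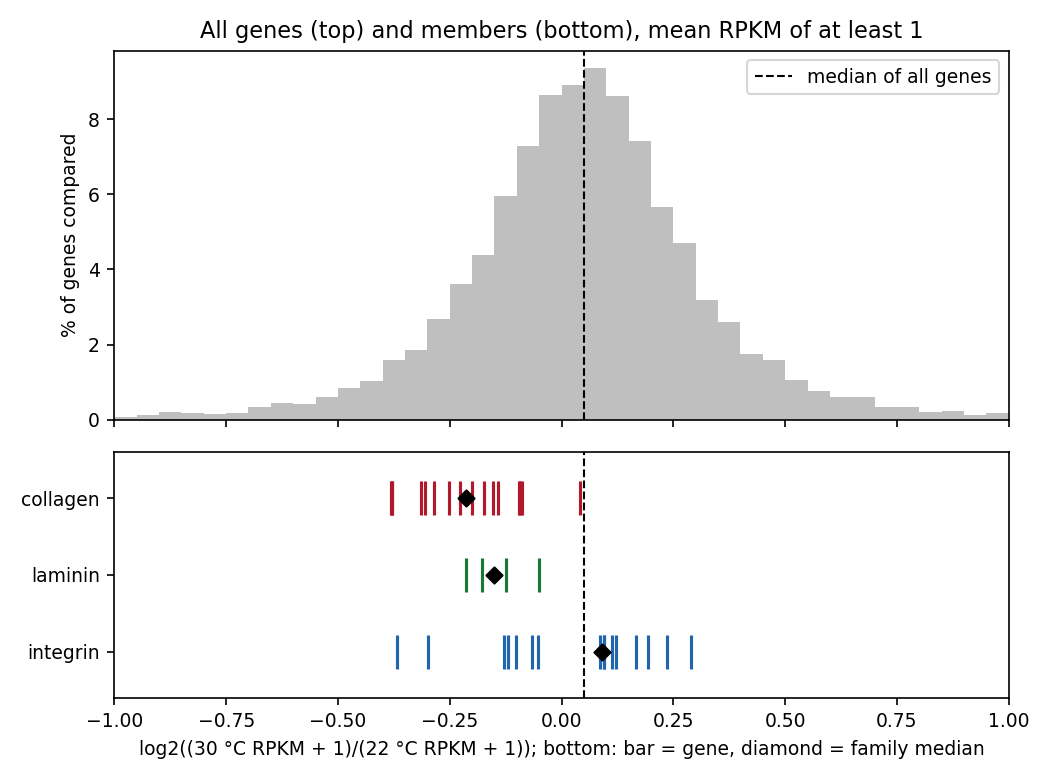
Top, share of all compared genes (y axis, %) by log2 ratio of RPKM + 1, 30 °C over 22 °C library (x axis, genes beyond ±1 not shown); bottom, each bar is a collagen, laminin or integrin gene and each diamond the family median. The dashed line is the median of all genes (0.05); collagens and laminins lie to its left, and integrins on both sides.

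By level, the measured collagens summed to 986 RPKM at 22 °C and 853 at 30 °C, which is 0.138% and 0.122% of all RPKM. The laminins summed to 95.3 and 84.5 RPKM and the integrins to 129 and 135. In both libraries COL3A1 took about as much as all other measured collagens together, 49.1% of collagen RPKM at 22 °C and 51.4% at 30 °C, and COL1A2 took 20.6% and 19.3%. COL1A1 is absent from these sums. Without COL1A2 and COL3A1 the other 27 collagens summed to 298 and 250 RPKM, and 13 of the 14 compared were below 0.

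**Figure D2:**
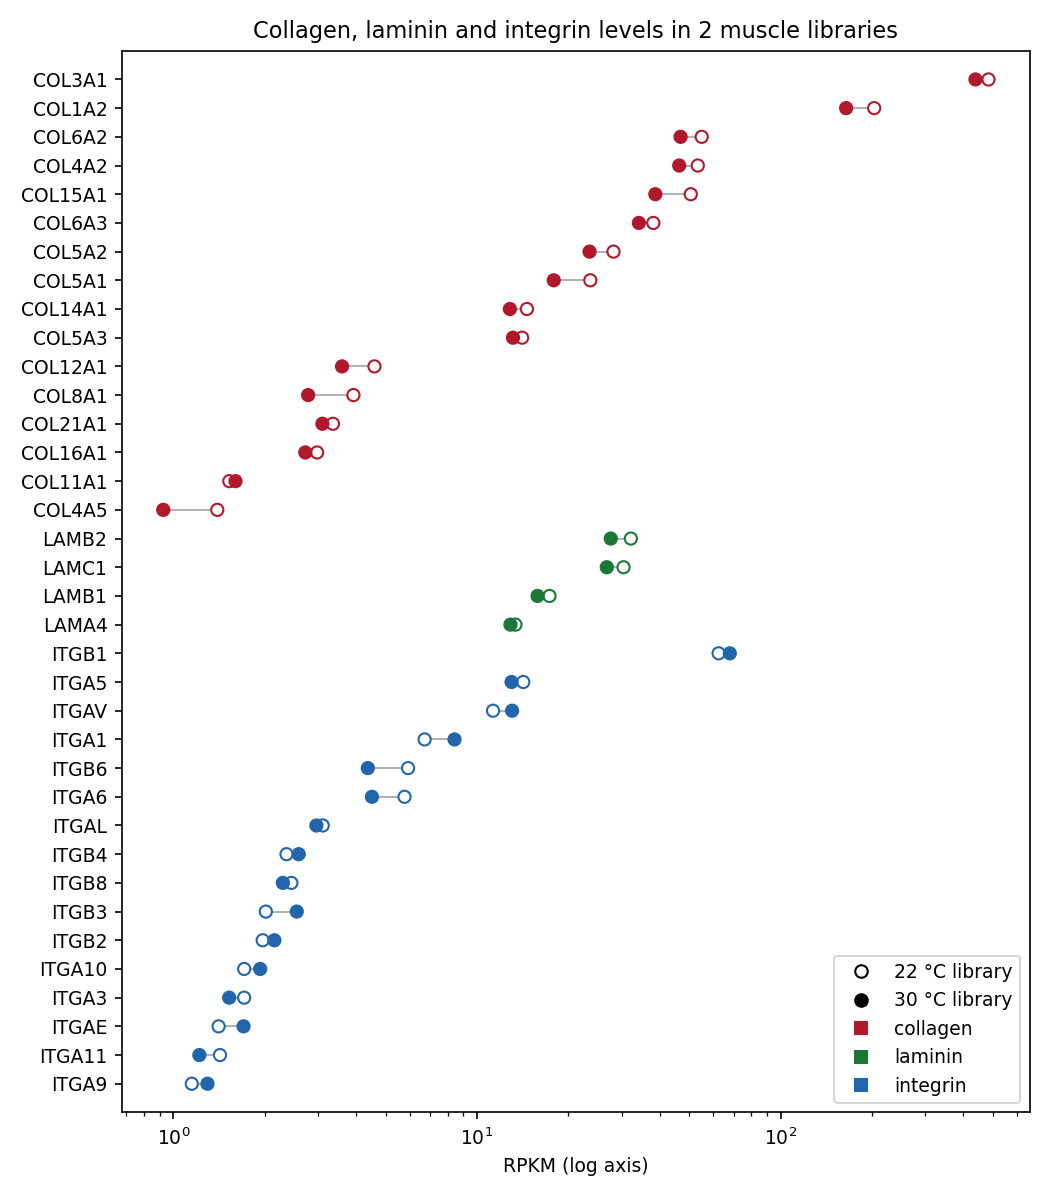
RPKM (x axis, log scale) of the 36 members whose mean RPKM reached 1, by family and level; open circles are the 22 °C library and filled circles the 30 °C library, 1 library each. Collagens run from COL3A1 (484 and 439 RPKM) to COL4A5 (1.39 and 0.925), and the filled circle is the lower one for every collagen but COL11A1.

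Among fibrillar collagens, 5 of the 6 compared were below 0, with a median log2 ratio of -0.20. COL3A1 (ENSSSCG00000016034), the homotrimeric fibril collagen of distensible tissue, stood at 484 RPKM at 22 °C and 439 at 30 °C, a ratio of 0.906 (0.887 to 0.925) and a log2 ratio of -0.14. COL1A2 (ENSSSCG00000015326), the alpha 2 chain of type I collagen, the main tensile collagen, stood at 203 and 164 RPKM, a ratio of 0.808 (0.793 to 0.824) and a log2 ratio of -0.31. The type I chain was thus lower by more than the type III chain, and the intervals of their ratios did not overlap. COL3A1 was 2.38 times COL1A2 at 22 °C and 2.67 times at 30 °C. This pair was set side by side after the values were seen.

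Type V collagen, which starts fibrils and limits their width, has 3 chains here that differed in size of effect. COL5A1 (ENSSSCG00000005751) was at 23.6 and 17.9 RPKM, a ratio of 0.758 (0.690 to 0.831). Its log2 ratio of RPKM + 1, -0.38, was the lowest of all 36 members, with COL8A1 and COL15A1 also at -0.38. By plain RPKM ratio COL4A5 (0.664), COL8A1 (0.709) and ITGB6 (0.737), all of lower level, were lower. COL5A2 (ENSSSCG00000016035) was at 28.2 and 23.5 RPKM, a ratio of 0.834 (0.772 to 0.901), and at -0.25 it fell just short of the 1.2-fold line, which lies at 0.26 in log2 size. COL5A3 (ENSSSCG00000013667), the chain of a less common type V trimer, was at 14.1 and 13.1 RPKM, with an interval that came close to 1 (0.871 to 0.999). The ratio of COL5A1 to COL5A2 was 0.839 at 22 °C and 0.762 at 30 °C. COL11A1, a chain of the cartilage fibril collagen type XI, was the only compared collagen above 0, at 1.53 and 1.60 RPKM (log2 ratio 0.04), and its interval holds 1 (0.859 to 1.28).

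The basement membrane collagens were also lower. COL4A2 (ENSSSCG00000009545), an alpha chain of the network that underlies fibres and capillaries, was at 53.4 RPKM at 22 °C and 46.3 at 30 °C, a ratio of 0.868 (0.819 to 0.921). COL15A1 (ENSSSCG00000005380), a multiplexin collagen that links basement membrane to nearby fibrils and is needed for stable muscle fibres and capillaries in mice, was at 50.6 and 38.7 RPKM, a ratio of 0.764 (0.634 to 0.920). At a log2 ratio of -0.38 COL15A1 was among the 3 lowest collagens compared, with COL5A1 and COL8A1, while COL4A2 was at -0.20. COL4A5, an X-linked chain of another type IV network, was at 1.39 and 0.925 RPKM (log2 ratio -0.31), on at least 14 and 9 reads and with an interval that holds 1 (0.253 to 1.65). COL4A6, which has a mean RPKM under 1 and was not counted, went the other way, at 0.418 and 0.773 RPKM (at least 62 and 111 reads, ratio interval 1.34 to 2.56). COL4A3 was at 0.0523 RPKM at 22 °C and listed at 0 at 30 °C, and COL4A4 was at 0.0654 and 0.0375.

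Type VI collagen makes beaded filaments just outside the basement membrane, and mutations in its chains cause human muscular dystrophies. COL6A2 (ENSSSCG00000028022) was at 55.0 RPKM at 22 °C and 46.8 at 30 °C, a ratio of 0.852 (0.813 to 0.892). COL6A3 (ENSSSCG00000027331), the longest of the classical chains, was at 38.1 and 34.1 RPKM, a ratio of 0.896 (0.869 to 0.924). Both chains were lower (log2 ratios -0.23 and -0.15), and COL6A2 was 1.44 times COL6A3 at 22 °C and 1.37 times at 30 °C. COL6A5 was under 0.1 RPKM in both libraries.

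Collagens that sit on the surface of fibrils were lower in 4 of the 4 compared, with a median of -0.13. COL14A1 (ENSSSCG00000005997), which binds fibrils in the sheets around fibres, was at 14.6 RPKM at 22 °C and 12.8 at 30 °C, a ratio of 0.879 (0.823 to 0.938). COL12A1, its tension-bearing relative, was at 4.59 and 3.59 RPKM, a ratio of 0.782 (0.663 to 0.922), and was the lowest of the group (log2 ratio -0.28). COL21A1 (3.35 and 3.09 RPKM, -0.09) and COL16A1 (2.97 and 2.72 RPKM, -0.10) were the least apart, and the intervals of both hold 1. COL8A1, a short-chain network collagen of vessel walls, was at 3.92 and 2.78 RPKM, a ratio of 0.709 (0.526 to 0.953) and a log2 ratio of -0.38.

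The laminins measured above 1 RPKM were an alpha, a pair of beta and a gamma chain, and all 4 were below 0. LAMB2 (ENSSSCG00000011377), the beta chain enriched at the neuromuscular junction, was highest, at 32.1 RPKM at 22 °C and 27.6 at 30 °C, a ratio of 0.859 (0.819 to 0.901). LAMC1 (ENSSSCG00000015555), the gamma chain of most laminins, was at 30.4 and 26.8 RPKM, a ratio of 0.880 (0.840 to 0.923). LAMB1 (ENSSSCG00000015444), the beta chain of the common muscle laminin, was at 17.3 and 15.8 RPKM, and its interval holds 1 (0.812 to 1.03). LAMA4 (ENSSSCG00000004425), the alpha chain of vessel and nerve laminins, was at 13.4 and 12.9 RPKM, also with an interval that holds 1 (0.894 to 1.04). The log2 ratios were -0.21 for LAMB2, -0.18 for LAMC1, -0.12 for LAMB1 and -0.05 for LAMA4, and none reached the 1.2-fold line. Per length, LAMC1 was nearly level with LAMB2 (LAMB2 to LAMC1 ratio 1.06 at 22 °C and 1.03 at 30 °C), and LAMB1 was at 0.570 and 0.592 of it.

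LAMA3 and LAMB3, alpha and beta chains best known from epithelia, were low. LAMA3 was at 0.532 and 0.498 RPKM, with an interval that holds 1. LAMB3 was at 0.554 RPKM at 22 °C and 0.155 at 30 °C, on at least 37 and 10 reads, a ratio of 0.279 (0.124 to 0.572). The interval of LAMB3 thus lay below 1, though on few reads.

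**Figure D3:**
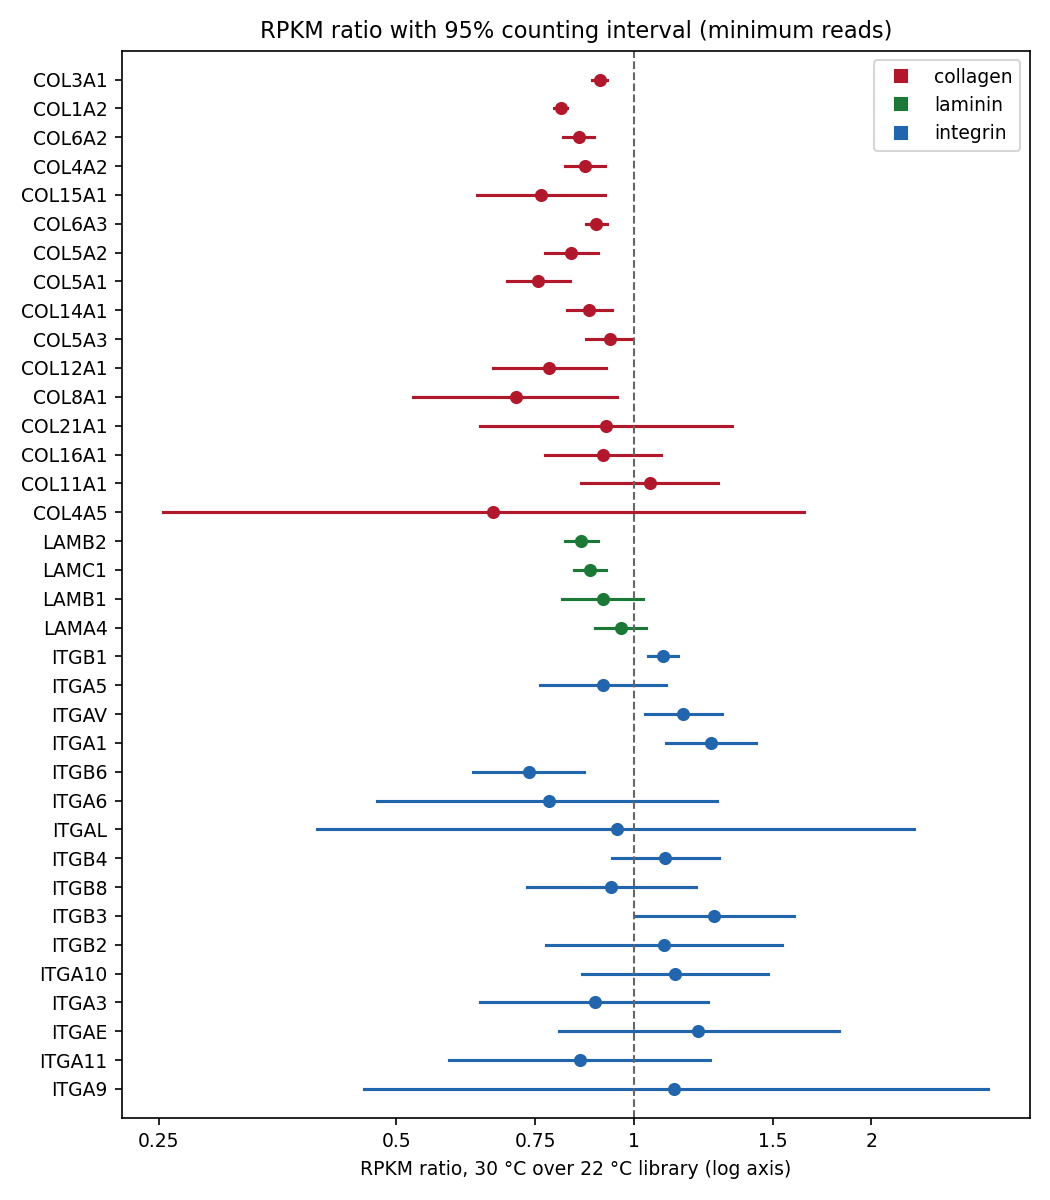
RPKM ratio, 30 °C over 22 °C library (x axis, log scale), of the 36 members whose mean RPKM reached 1; lines are 95% counting intervals from minimum reads and do not include variation between pigs. Of the 16 collagens 12 have an interval below 1, of the 4 laminins 2 (LAMB2 and LAMC1), and of the 16 integrins 1 is below (ITGB6) and 4 are above 1.

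The integrins compared had 7 members below 0 and 9 above. ITGB1 (ENSSSCG00000011101), the beta subunit shared by the collagen, laminin and fibronectin receptors, held most of the RPKM of the 7 measured beta subunits (80.03% at 22 °C, 82.4% at 30 °C), a sum without ITGB5, which had no entry. It was at 62.5 and 68.0 RPKM, a ratio of 1.09 (1.04 to 1.14) and a log2 ratio of 0.12. The 14 measured alpha subunits together gave 51.3 and 52.3 RPKM, so that ITGB1 was 1.22 times their sum at 22 °C and 1.302 times at 30 °C. ITGA7, the main laminin receptor subunit of muscle fibres, is not in that sum.

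Of the collagen-binding subunits, ITGA1 (ENSSSCG00000016885), which prefers type IV collagen, was at 6.72 RPKM at 22 °C and 8.43 at 30 °C, a ratio of 1.25 (1.10 to 1.43). On the scale of RPKM + 1 it was the only one of the 36 members at least 1.2-fold higher (log2 ratio 0.29). After centring on the median of all genes it was at 0.24, short of that line. By plain RPKM ratio ITGB3 (1.26) and ITGAE (1.21) were also at least 1.2-fold higher, the latter with an interval that holds 1. ITGA10 was at 1.71 and 1.93 RPKM (0.11) and ITGA11, a fibroblast receptor for fibrillar collagen, at 1.42 and 1.22 (-0.13), both with intervals that hold 1. ITGA2 was at 0.540 and 0.535 RPKM. Only ITGA1 of these subunits had an interval off 1, so whether they share a direction was not settled.

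The laminin-binding subunits measured were both below 0. ITGA6 (ENSSSCG00000015955), a laminin receptor subunit of endothelium, nerve and satellite cells, was at 5.77 and 4.50 RPKM (log2 ratio -0.30). Its interval from minimum reads holds 1 (0.473 to 1.28), but it rests on reads that imply a gene of under 1000 bp, and with the smallest multiple that reaches this length it lay below 1 (0.613 to 0.992). ITGA3 was at 1.71 and 1.53 RPKM (-0.10), with an interval that holds 1. ITGA1 was 1.16 times ITGA6 at 22 °C and 1.87 times at 30 °C, a pair set side by side after the values were seen.

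Subunits of the receptors for the arginine-glycine-aspartate motif of fibronectin and vitronectin were split. ITGAV (ENSSSCG00000016027), which pairs with several beta subunits, was at 11.3 and 13.0 RPKM, a ratio of 1.16 (1.03 to 1.29) and a log2 ratio of 0.19. ITGA5 (ENSSSCG00000000293), of the fibronectin receptor, was at 14.2 and 13.0 RPKM (-0.12), with an interval that holds 1 (0.761 to 1.10). ITGA5 was thus the higher of the pair at 22 °C and level with ITGAV at 30 °C. ITGA8 had a mean RPKM under 1, at 0.705 and 0.978 RPKM (ratio interval 1.07 to 1.81).

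Beta subunits that pair with ITGAV also went apart. ITGB3 was at 2.01 and 2.55 RPKM (log2 ratio 0.23), with an interval just above 1 (1.004 to 1.60). ITGB6 (ENSSSCG00000015886), best known from epithelia, where it activates TGF-beta, was at 5.93 and 4.37 RPKM, a ratio of 0.737 (0.626 to 0.866) and a log2 ratio of -0.37, the lowest of the integrins compared. ITGB8 was at 2.45 and 2.29 RPKM (-0.07), with an interval that holds 1. ITGB4, the partner of ITGA6 in epithelia and nerve sheaths, was at 2.36 and 2.59 RPKM (0.10), also with an interval that holds 1. Of ITGAV and the 3 beta partners named here, ITGAV and ITGB3 had 95% intervals above 1 and ITGB6 one below 1. With 99% intervals ITGB6 kept its side, and those of ITGAV and ITGB3 held 1.

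Integrins of white blood cells were low and mostly within counting error. ITGAL (3.10 and 2.96 RPKM), ITGB2 (1.97 and 2.15 RPKM), ITGAE (1.41 and 1.70 RPKM) and ITGA9 (1.15 and 1.29 RPKM), which is not confined to these cells, all had intervals that hold 1. ITGAM, of macrophages and neutrophils, was at 1.11 and 0.717 RPKM (ratio interval 0.417 to 0.993). ITGB7 was at 0.881 and 0.582 RPKM and ITGA4 at 0.452 and 0.435, with intervals that hold 1. Without the leukocyte subunits ITGAL, ITGAM, ITGAE, ITGB2 and ITGB7, the 13 other integrins compared had 6 below and 7 above 0.

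The 22 members with a mean RPKM under 1 comprised 13 collagens, 4 laminins and 5 integrins, with means from 0.0140 to 0.912 RPKM, and 17 of them were below 0, against 42% of the 8207 entries above 0 RPKM whose mean was under 1. Of these collagens, COL27A1 was at 0.732 and 0.530 RPKM and COL11A2, COL13A1, COL22A1 and COL28A1 were under 0.4 in both libraries. COL17A1 was at 0.0214 and 0.0664 RPKM and the laminin chain LAMC3 at 0.0208 and 0.00716. A further 4 collagens were listed at 0 in 1 library: COL9A1 at 22 °C, and COL4A3, COL10A1 and COL23A1 at 30 °C. COL23A1 was at 0.395 RPKM at 22 °C.

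Some members lie next to each other in the RefSeq annotation of Sscrofa11.1, a build other than the authors'. Among such pairs, COL3A1 with COL5A2 and COL4A3 with COL4A4 had both genes below 0. ITGA1 was at 0.29 and ITGA2 at -0.0040, the latter with an interval that holds 1. COL4A5 (-0.31) and COL4A6 (0.32), which in mammals share a promoter region, had opposite signs, and COL4A6 was 0.300 of COL4A5 at 22 °C and 0.835 of it at 30 °C. COL4A5 rests on at least 14 and 9 reads, with an interval that holds 1 (0.253 to 1.65), and COL4A6 has a mean RPKM under 1.

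Genes that make, trim and bind these proteins are given from 7 lists, with their counts read against the same shares of all genes. The enzymes that fold and modify procollagen went both ways, with 6 of 13 below 0 and a median log2 ratio of 0.13. P4HA3, a subunit of prolyl 4-hydroxylase, which stabilises the collagen helix, had the highest ratio, at 1.06 and 2.32 RPKM (0.69). FKBP10, a chaperone of type I procollagen, had the lowest, at 5.19 and 2.99 RPKM (-0.63). P4HA1 (13.9 and 16.3 RPKM, 0.22), P4HA2 (15.4 and 18.8 RPKM, 0.27) and the lysyl hydroxylase PLOD2 (4.05 and 5.89 RPKM, 0.45), singled out after their values were seen, were also higher, so that the 3 measured P4HA subunits had ratios above 0 where COL1A2 and COL3A1 were below. The counting intervals of P4HA1, P4HA3 and PLOD2 lay above 1. That of P4HA2 holds 1 (0.918 to 1.62), but from minimum reads it may be too wide.

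Genes that cleave and cross-link secreted collagen were below 0 in 8 of 8 compared, with a median of -0.20. LOXL1, a lysyl oxidase that cross-links elastin, had the lowest ratio, at 3.26 and 2.11 RPKM (-0.45). PCOLCE2, an enhancer of procollagen cleavage, had the highest, at 3.69 and 3.54 RPKM (-0.05), with an interval that holds 1. ADAMTS2, which removes the N-propeptide, was at 4.58 and 3.28 RPKM (-0.38) and PCOLCE at 59.8 and 47.8 RPKM (-0.32), both singled out after their values were seen. Matrix degradation genes were below 0 in 7 of 8, with a median of -0.22. MRC2, the receptor that takes up collagen fragments, had the lowest ratio, at 37.2 and 28.1 RPKM (-0.39). The protease inhibitor TIMP1 had the highest, at 13.0 and 17.5 RPKM (0.40), with an interval that holds 1 (0.855 to 2.14).

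Basement membrane partners were below 0 in 7 of 9, with a median of -0.20. The heparan sulfate proteoglycan perlecan, HSPG2, which binds laminin and type IV collagen, was at 45.8 and 33.9 RPKM (-0.43). On the scale of RPKM + 1 only LAMB3 and COL23A1 of the 58 members were lower. By plain RPKM ratio, genes of lower level such as COL8A1 (0.709) were lower than HSPG2 as well. Of these partners FBLN1 had the highest ratio, at 12.3 and 13.4 RPKM (0.12), with an interval that holds 1 (0.541 to 2.20). On the receptor side, non-integrin matrix receptors were below 0 in 4 of 10 (median 0.04), from BCAM, a laminin alpha 5 receptor (146 and 120 RPKM, -0.28), to sarcospan, SSPN, of the dystrophin complex (33.9 and 41.1 RPKM, 0.27). The integrin adhesion complex, which ties integrin tails to actin, was below 0 in 9 of 19 (median 0.01). It ran from RSU1 (8.19 and 6.44 RPKM, -0.30, with an interval that holds 1) to KRIT1 (4.18 and 5.54 RPKM, 0.34). TGF-beta and CCN signalling genes were below 0 in 7 of 13 (median -0.08), from the inhibitor SMAD7 (2.87 and 1.75 RPKM, -0.49) to TGFB1 (4.62 and 5.97 RPKM, 0.31, with an interval that holds 1).

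**Figure D4:**
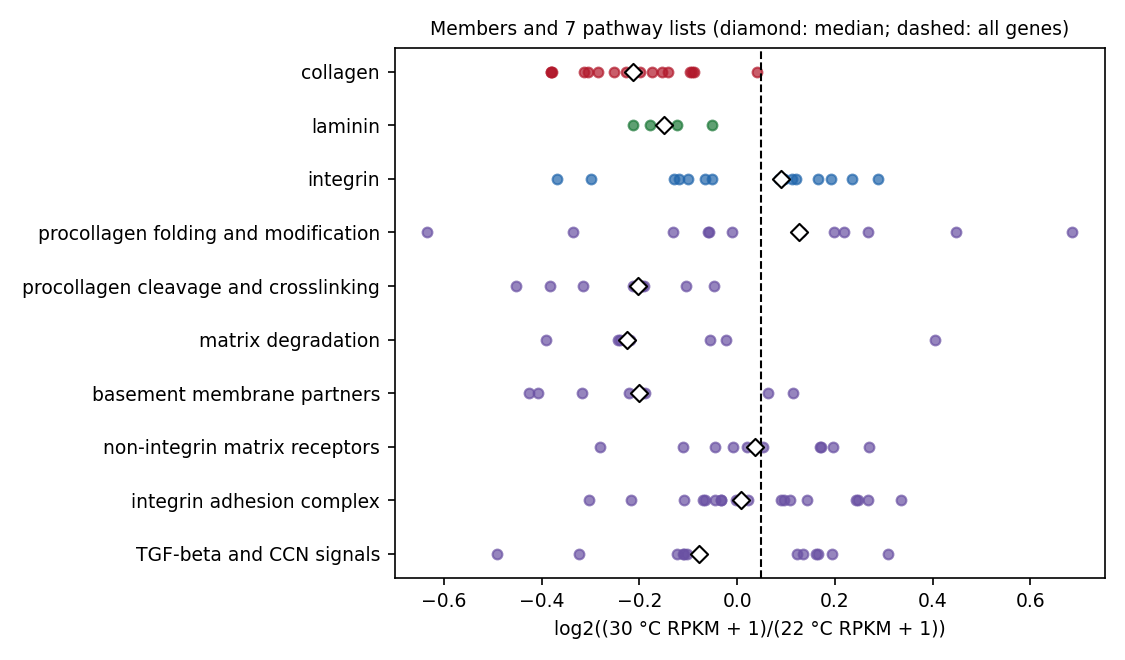
Log2 ratio of RPKM + 1, 30 °C over 22 °C library (x axis), of each gene whose mean RPKM reached 1 in the 3 families and 7 pathway lists (rows); diamonds are medians and the dashed line the median of all genes (0.05). Medians of collagens (-0.21), cleavage and crosslinking (-0.20), matrix degradation (-0.22) and basement membrane partners (-0.20) lie left of the line, while that of procollagen folding and modification (0.13) lies right of it.

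Fibroblasts make most fibrillar collagen in muscle, and the log2 ratios of their markers lay on both sides of 0. Of 12 listed, 8 were matched, 4 were below 0 and 4 above, the median was -0.02 and none was at 0. Their summed level was 373 RPKM in both libraries, most of it from decorin, DCN (186 and 190 RPKM), and vimentin, VIM (128 and 129 RPKM), while the fibroblast receptor PDGFRA was at 3.94 and 2.92 RPKM (-0.33). The counting intervals of PDGFRA (0.615 to 0.895), LUM (0.851 to 0.969) and PI16 (0.685 to 0.993) lay below 1. No fibroblast marker had an interval above 1, and those of the other matched markers hold 1. Tendon and cartilage markers were below 0 in 3 of the 4 compared and summed to 30.7 and 23.7 RPKM, with ACAN listed at 0 at 30 °C. The 4 were TNMD, of tendon, at 2.55 and 1.21 RPKM (-0.69), KERA at 4.87 and 3.13 (-0.51), FMOD at 12.8 and 9.18 (-0.43), and THBS4 at 9.46 and 9.79 (0.04). The counting intervals of FMOD and KERA lay below 1, while those of TNMD (0.209 to 1.004) and THBS4 (0.929 to 1.15) hold 1. That of TNMD only just reaches 1 and, taken from minimum reads, may be too wide, so its side was not settled. The part of these cells in the collagen ratios was not tested. Endothelial markers, whose cells also make type IV collagen and LAMA4, were below 0 in 2 of 7 and summed to 156 and 175 RPKM, with none at 0. Most of this sum came from PECAM1, at 111 and 127 RPKM, and without it the sum was 45.5 and 48.1 RPKM. The interval of PECAM1 holds 1 (0.903 to 1.45) but, taken from minimum reads, may be too wide, so its side was not settled. Those of TEK and ERG lay above 1, and no endothelial marker had an interval below 1. Smooth muscle and pericyte markers, none at 0, were below 0 in 4 of 7 and summed to 2324 and 2696 RPKM, of which desmin, DES, also a fibre gene, gave 2203 and 2567. The intervals of CNN1, CSPG4 and NOTCH3 lay below 1. Those of DES and ACTA2 (52.0 and 67.9 RPKM) lay above 1, and those of PDGFRB and MCAM hold 1.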

How the data were processed

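Per the labels' protocols, 3 µg of RNA went into each TruSeq library, with poly-T bead capture, random first-strand primers and a 10-cycle PCR. The authors deposited 1 RPKM value per gene and library. Bowtie, TopHat 1.4.0, Cufflinks 1.3.0 and Sscrofa10.2 appear in the submitters' processing notes, which do not say which did what. The counter, the treatment of reads with several matches and the gene lengths are not given in the sources used here. No strand-marking step is described, so a gene and its antisense partner cannot be told apart.

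Symbols came from a table of pig gene names, which matched 11374 of 22740 entries with an Ensembl identifier. No member symbol had more than 1 entry. The ratio of library totals (22 °C over 30 °C) most frequent among low genes was 1.03. With it 99.9% of 13134 low entries (mean RPKM under 5) gave whole reads of at most 1000, and with a wrong factor 0.343% did. The library totals are the largest at which over 45% of a subset of gene lengths came to whole numbers (to 0.01 bp), and at those totals 68.5% of 1808 lengths did. One read on 1 kb was worth 0.0424 RPKM at 22 °C. On simulated reads the smallest whole pair was right for 100% of 14260 genes with a mean RPKM under 5. The true multiple of each pair was supplied in this check, so its recovery was not tested. A count test was not run, since each group has 1 library.

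The members, the lists and the tests were chosen with earlier results of these data known. Values in full were given for members with a mean RPKM of at least 5, for any 1.5-fold apart, and for the highest and lowest of each role group and pathway list; other members are given in brief. Results on 3 genes are not reported here. Alternatives were other pseudocounts (0.1 and 5), filters, scalings and folds. Python 3.11.15, pandas 2.3.3, numpy 2.4.6, scipy 1.17.1 and matplotlib 3.10.9 were used.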

Additional observations from a re-analysis of the deposited data

How the results depend on the processing

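No paired analysis was possible because there was only 1 library per arm, and no replicate could be left out. The medians of collagens (-0.27 to -0.15) and of laminins (-0.21 to -0.11) stayed below 0 in the 8 alternatives run on them. The integrin median of 0.09 ran from -0.0040 with no filter, a turn of sign, to 0.12 with a pseudocount of 0.1. The 8 members at least 1.2-fold lower became 3 with a pseudocount of 5 (3.92% of all genes), 5 where the mean RPKM had to reach 5 (7.93%), 5 with the 10 highest genes left out of the scaling (8.74%), and 0 at 1.5-fold (2.37%) and at 2-fold (0.584%), so the share of all genes, 10.5% as reported, fell as well. The 1 higher member (17.5% of all genes) became 0 with a pseudocount of 5 (5.68%), with centring on the median (13.8%), with trimmed mean rescaling (13.2%), and at 1.5-fold (3.44%) and 2-fold (0.629%), and 2 with a pseudocount of 0.1 (22.8%), with no filter (17.6%) and with the 10 highest genes left out of the scaling (21.3%). The 26 members below 0 became 17 of 20 where the mean RPKM had to reach 5 (42.7% of all genes) and 43 of 58 with no filter (41.5%), where fewer and more genes are counted. They stayed 26 in the 3 rescalings, with 34.8% to 50.3% of all genes below 0. A pseudocount cannot change a sign, and summing the entries of a symbol touched no member. With 99% intervals the 4 members above 1 became 2, ITGA1 and ITGB1, and the 15 below 1 became 13. With the multiple of the minimum reads that reaches 1000 bp, the 4 above 1 stayed 4 and the 15 below 1 became 16, with ITGA6 added. The interval of COL15A1 then narrowed to 0.704 to 0.829. Chain ratios with COL1A1, COL4A1, COL6A1, LAMA2 and ITGA7 were not run, since these symbols had no entry. Other causes were not tested. The true reads can be a multiple of the smallest that fit, so depth at a single gene is known only as a lower limit, such as 14 and 9 reads for COL4A5.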

Other observations

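Markers of other cell types of muscle, not described above, were read from the same table. Satellite cell markers were below 0 in 1 of 4 compared and summed to 47.0 RPKM at 22 °C and 50.9 at 30 °C. VCAM1, the cell surface ligand of the integrin that holds ITGA4, had the highest ratio, at 12.6 and 18.0 RPKM (log2 ratio 0.48), and the myogenic factor MYOD1 the lowest, at 12.9 and 10.3 RPKM (-0.30). Adipocyte markers were below 0 in 3 of 5, with CIDEC lowest (7.56 and 3.48 RPKM, -0.93). They summed to 59.1 and 56.7 RPKM, most of it from PLIN4, the highest ratio of the list (33.7 and 39.6 RPKM, 0.23). Macrophage and leukocyte markers were below 0 in 3 of 6 and summed to 15.9 and 18.3 RPKM. They ran from CD8A (1.57 and 0.644 RPKM, -0.65) to CD68 (3.61 and 5.36 RPKM, 0.47, with an interval that holds 1). In these 3 lists no matched marker was at 0 in either library.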
